A study of Rattus norvegicus with 3 samples.

Results

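The CCN genes encode a family of secreted matricellular proteins, and 5 of its genes were followed in single-cell RNA of the rat temporomandibular joint (TMJ): Ctgf (also called Ccn2, ENSRNOG00000015036), Cyr61 (Ccn1, ENSRNOG00000014350), Nov (Ccn3, ENSRNOG00000008697), Wisp1 (Ccn4, ENSRNOG00000007078) and Wisp2 (Ccn5, ENSRNOG00000010666). They were picked by gene name, all 5 were listed in each of 3 libraries, and they are 5 of the 20896 gene names listed in at least 1 library. Matricellular proteins sit in the extracellular matrix and act on cells there, by binding integrins, proteoglycans and growth factors, rather than by bearing load themselves. CTGF and CYR61 are classical targets of the Hippo effectors YAP and TAZ, of TGF-beta and of mechanical strain. In the skeleton CTGF is known from growth plate and articular chondrocytes, WISP1 from Wnt-responsive osteoblast precursors, and WISP2 lacks the C-terminal module that the other members carry.

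The study asked how a disturbed bite and a delivered microRNA change the mandibular condyle, and sequenced its cartilage and subchondral bone with a droplet-based assay that reads the 3' ends of RNA. All animals were wild-type SD rats whose joints were injected with adeno-associated virus (AAV). The sham group received Vector AAV and no bite change, the UAC group received Vector AAV and unilateral anterior crossbite (UAC), a dental model that overloads the joint, and the UAC + miR-330 group received UAC and miR-330 AAV. Per the methods the crossbite was kept for 8 weeks, and the age of the rats and the promoter and serotype of the AAV are not given in the sources used here. The sample label of the UAC + miR-330 library does not name the microRNA, which is taken from the series design. Each group was 1 library, pooled from 16 condyles of 8 rats, so no difference given here has a replicate check, no test between groups was made, and the rats of a pool cannot be told apart.

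Depth was 77668015 UMIs (unique molecular identifiers, 1 for each captured RNA molecule) in sham, 92629658 in UAC and 97255383 in UAC + miR-330, split into 15, 18 and 19 clusters, with each library clustered on its own. Levels are given as CPM, counts per 1000000 UMIs in the same cluster or library, with exact Poisson 95% intervals that cover counting error only. A UMI marks the 3' end of a molecule, so CPM was not divided by gene length, and the order of genes below is an order of captured molecules. Among the other clusters were ones with enriched markers of B cells, neutrophils, erythroid cells, macrophages, and T and NK cells. In each library 1 cluster, numbered 12 in sham, 16 in UAC and 17 in UAC + miR-330, had most of the chondrocyte markers enriched, and it is called the skeletal cluster here.

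The skeletal cluster was mixed. At least 10 UMIs and a level at least 2 times that of the other clusters were reached by 18, 17 and 18 of 20 chondrocyte markers in sham, UAC and UAC + miR-330, by 11, 12 and 12 of 12 osteogenic markers, and by 9, 9 and 10 of the 13 matched fibroblast markers. Summed over each list, chondrocyte markers stood at 63488.5, 50536.5 and 65637.3 CPM, led by the cartilage collagen gene Col2a1. Osteogenic markers summed to 70914, 61441 and 61756 CPM, led by Col1a1, and fibroblast markers to 9266, 9325 and 8656 CPM, led by Col3a1. Its part of all UMIs was 11.6% in sham, 6.46% in UAC and 6.05% in UAC + miR-330, and whether that reflects fewer cells or less RNA per cell cannot be told apart. The labels also name osteoclasts, yet no cluster had more than 2 of the 7 osteoclast markers enriched.

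Ctgf was the most abundant member in every library. In the skeletal cluster it had 17412 UMIs in sham, 9572 in UAC and 8120 in UAC + miR-330. These gave 1930.4 CPM (95% interval 1901.8 to 1959.3), 1600.6 CPM (1568.7 to 1633.0) and 1379.7 CPM (1349.9 to 1410.05). The level was highest in sham and lowest in UAC + miR-330, and the 3 intervals did not overlap. In the deposited mean counts, which are scaled to another total in each library, UAC + miR-330 lay slightly above UAC (log2 ratio 0.02). Ranked by UMIs among all genes of that cluster, Ctgf was 65th in sham, 91st in UAC and 92nd in UAC + miR-330.

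Cyr61, the other strain-responsive member, followed another order. It had 1581, 1832 and 1413 UMIs in the skeletal cluster of sham, UAC and UAC + miR-330, or 175 CPM (167 to 184), 306 CPM (292 to 321) and 240.1 CPM (228 to 253). Its level was therefore lowest in sham and highest in UAC, where Ctgf stood between its values in the other libraries, and these 3 intervals did not overlap either.

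Wisp1, named for its induction by Wnt1, had 528, 513 and 468 UMIs in the skeletal cluster. Its level was 58.5 CPM (53.6 to 63.7) in sham, 85.8 CPM (78.5 to 93.5) in UAC and 79.5 CPM (72.5 to 87.1) in UAC + miR-330. Both UAC libraries were above sham, and their own intervals overlapped.

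Nov, a member often described as opposing CTGF, was rare, with 36, 54 and 68 UMIs in that cluster. It stood at 3.99 CPM (2.80 to 5.53) in sham, 9.03 CPM (6.78 to 11.8) in UAC and 11.6 CPM (8.97 to 14.6) in UAC + miR-330. The intervals of the UAC libraries lay above the sham interval and overlapped each other.

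Wisp2 was the rarest, with 11 UMIs in sham, 30 in UAC and 27 in UAC + miR-330. Its levels were 1.22 CPM (0.609 to 2.18), 5.02 CPM (3.38 to 7.16) and 4.59 CPM (3.02 to 6.67), again with sham below the other two. The order Ctgf, Cyr61, Wisp1, Nov, Wisp2 held in the skeletal cluster of all 3 libraries, and neighbours in it had separate intervals except Nov and Wisp2 in UAC. The sixth family gene, Wisp3, was not among those followed and was looked at after the values were seen. It had 129, 101 and 65 UMIs, or 14.3 CPM (11.9 to 17.0) in sham, 16.9 CPM (13.8 to 20.5) in UAC and 11.04 CPM (8.52 to 14.1) in UAC + miR-330 with overlapping intervals throughout. The log2 ratio of Wisp3 was 0.24 (exact interval -0.15 to 0.63) in UAC against sham. In UAC + miR-330 against UAC it was -0.61 (-1.09 to -0.15), an interval that leaves out 0 although the CPM intervals overlapped.

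**Figure D1:**
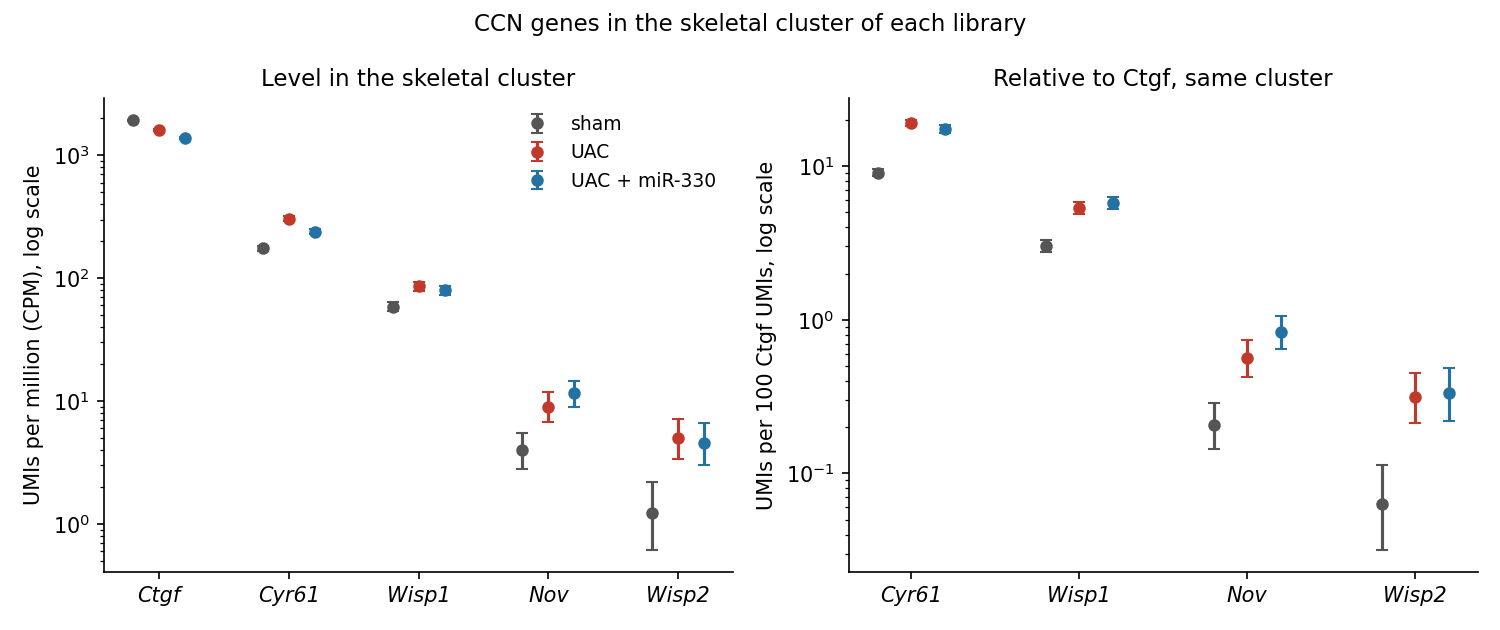
Level of the 5 CCN genes in the skeletal cluster of each library, as CPM on a log axis (left), and UMIs of the other 4 genes per 100 Ctgf UMIs on a log axis (right). Points are 1 library each and bars are exact 95% counting intervals; Ctgf stands at 1930.4 CPM in sham and 1379.7 CPM in UAC + miR-330, and on the right every gene is lowest in sham.

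Set against each other inside one cluster, the members need no scaling between libraries. For every 100 UMIs of Ctgf the skeletal cluster held 9.08 UMIs of Cyr61 (exact 95% interval 8.62 to 9.56) in sham, 19.1 (18.2 to 20.1) in UAC and 17.4 (16.4 to 18.4) in UAC + miR-330. For Wisp1 the values were 3.03 (2.78 to 3.31), 5.36 (4.89 to 5.86) and 5.76 (5.24 to 6.33). For Nov they were 0.207 (0.145 to 0.286), 0.564 (0.423 to 0.737) and 0.837 (0.650 to 1.06), and for Wisp2 0.0632 (0.0315 to 0.113), 0.313 (0.211 to 0.448) and 0.333 (0.219 to 0.484). All 4 other followed members were more frequent relative to Ctgf in both UAC libraries than in sham, with intervals apart. The 4 ratios of a library share its Ctgf count, so they are not separate results. For all 4 the intervals of the UAC libraries overlapped, which does not show that these libraries were alike. Ctgf made up 89.0% of the 19568 UMIs of the 5 followed genes in sham (88.5% to 89.4%), 79.8% of 12001 in UAC (79.0% to 80.5%) and 80.4% of 10096 in UAC + miR-330 (79.6% to 81.2%). The 5 genes together stood at 2169 CPM in sham, 2007 CPM in UAC and 1715 CPM in UAC + miR-330.

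The first comparison, UAC against sham, addresses what the crossbite goes along with. A gene was called higher or lower when the 2 Poisson intervals were apart and the ratio of CPM, after 0.5 UMI was added to each count, was at least 1.5-fold. In the skeletal cluster 3 of the 5 members were called higher in UAC and 0 lower, where 6.81% of 12606 genes were called higher and 1.02% lower; these are the genes that reached 10 UMIs in sham and UAC added up. All 5 members passed that minimum. The called genes were Wisp2 with a log2 ratio of 2.0 (exact interval 1.00 to 3.19), Nov with 1.17 (0.54 to 1.83) and Cyr61 with 0.81 (0.71 to 0.90). Wisp1 lay just under the required fold, at 1.47-fold and a log2 ratio of 0.55 (0.37 to 0.73). Ctgf had a log2 ratio of -0.27 (-0.31 to -0.23), the only negative value among the 5 here and under each scaling tried, with intervals apart but a fold too small to be called. The median log2 ratio of all genes with at least 50 UMIs was 0.14, and relative to it Ctgf was at -0.41 and Cyr61 at 0.67. Scaled to the chondrocyte, osteogenic and fibroblast markers (skeletal markers below) instead of all UMIs, Ctgf was at -0.03, close to level with sham, and Cyr61 at 1.05.

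The second comparison, UAC + miR-330 against UAC, addresses the delivered microRNA, which the study links to CTGF among other genes, and shares the UAC library with the first. Of the 5 members 0 were called higher and 0 lower in the skeletal cluster, where 5.53% of 12398 genes were called higher and 5.28% lower. Cyr61 had a log2 ratio of -0.35 (-0.45 to -0.25) and kept a negative value under every other scaling tried. Ctgf had -0.21 (-0.26 to -0.17) but was at 0.02 in the deposited mean counts, which add up to another total in each library. Wisp1 at -0.11 (-0.29 to 0.07) and Wisp2 at -0.13 (-0.93 to 0.67) also turned positive in the deposited mean counts, and for both of them, as for Nov at 0.35 (-0.18 to 0.90), a difference was not detectable at this depth.

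Summed over all clusters, the level of a gene also moves with the share of UMIs that the skeletal cluster takes. In whole libraries Ctgf stood at 232 CPM (229 to 235) in sham, 108 CPM (106 to 110.2) in UAC and 87.5 CPM (85.6 to 89.3) in UAC + miR-330. In UAC against sham 1 of the 5 members, Ctgf, was called lower, with a log2 ratio of -1.10 (-1.14 to -1.07), and 0 were called higher, where 4.63% of 16687 genes were lower and 5.6% higher. Per UMI of skeletal markers that value was -0.04, and 4 of the 5 members were then called higher and 0 lower, but so were 13250 of the 16687 genes, so that count says nothing about the members. Cyr61 stood at 21.2, 20.8 and 15.3 CPM, with a log2 ratio of -0.02 (-0.12 to 0.07) in UAC against sham, which was 0.17 in the deposited mean counts and 1.03 per skeletal marker UMI. In UAC + miR-330 against UAC 0 members were called in either direction over all clusters, where 8.87% of 16939 genes were higher and 2.74% lower, and Ctgf was at -0.30 (-0.35 to -0.26) and Cyr61 at -0.45 (-0.55 to -0.35), beside a median of 0.13 over these genes. Wisp1 stood at 7.004, 5.62 and 4.97 CPM in sham, UAC and UAC + miR-330, and its log2 ratio of -0.32 (-0.49 to -0.14) in UAC against sham was 0.74 per skeletal marker UMI. Nov stood at 0.476, 0.648 and 0.843 CPM and Wisp2 at 0.232, 0.389 and 0.370 CPM, and for both of them the intervals of neighbouring libraries overlapped.

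**Figure D2:**
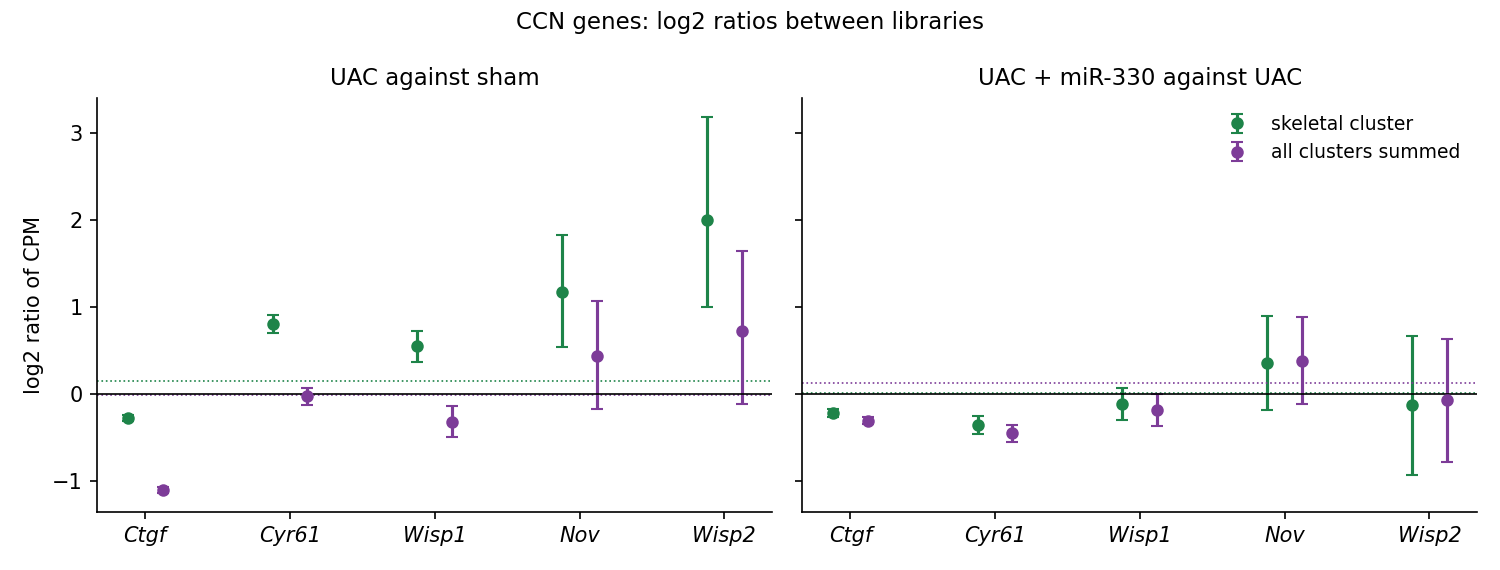
Log2 ratio of CPM for each CCN gene in UAC against sham (left) and UAC + miR-330 against UAC (right), in the skeletal cluster (green) and over all clusters summed (purple). Bars are exact 95% counting intervals from 1 library per group and dotted lines the median of all genes with at least 10 UMIs; in UAC against sham the skeletal-cluster value is above 0 for 4 genes and at -0.27 for Ctgf.

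Outside the skeletal cluster the family was thin, although each of the 14, 17 and 18 other clusters held some Ctgf, at 4.41 to 62.6 CPM in sham, 1.37 to 13.1 CPM in UAC and 1.44 to 34.2 CPM in UAC + miR-330. Ctgf had 96.7% of its UMIs in the skeletal cluster in sham (exact binomial 95% interval 96.4% to 96.9%), 95.6% in UAC (95.2% to 96.0%) and 95.5% in UAC + miR-330 (94.99% to 95.9%). Cyr61 had 96.1%, 94.97% and 95.2% there, and Wisp1 97.1%, 98.5% and 96.9%. The other clusters together showed Ctgf at 0.451% of its skeletal-cluster level in sham, 0.315% in UAC and 0.307% in UAC + miR-330. Chondrocyte, osteogenic and fibroblast markers gave medians of 0.489%, 0.244% and 0.267% in the same clusters, over 36, 35 and 36 genes with at least 100 UMIs in the skeletal cluster. RNA free in the droplets was not measured, and a share of a member at or below that of the markers in the same cluster was not read as expression. Intervals of such shares below take the skeletal-cluster level as fixed and cover the counting error of the other cluster only.

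A cluster with haemoglobin genes stood out in 2 libraries. In sham cluster 14, led by Igh-6 and Hba-a3, Ctgf reached 62.6 CPM (50.8 to 76.4), Cyr61 16.8 CPM and Wisp1 3.87 CPM, from 97, 26 and 6 UMIs. In cluster 5 of UAC + miR-330, also led by Igh-6, they reached 34.2 CPM (27.7 to 41.7), 8.11 CPM and 2.12 CPM. The skeletal markers were raised there as well, at a median of 4.73% of their skeletal-cluster level in sham cluster 14 and 3.18% in cluster 5 of UAC + miR-330, beside 3.24% and 2.48% for Ctgf. For Cyr61 the shares were 9.57% (6.25% to 14.0%) and 3.38% (2.14% to 5.07%), and for Wisp1 6.62% (2.43% to 14.4%) and 2.66% (0.976% to 5.79%). The interval of Cyr61 in sham cluster 14 lay above the marker median but reached below the upper marker quartile there, 6.32%. The other intervals of Cyr61 and Wisp1 held the marker median. Sham cluster 14 also had all 7 matched mast and basophil markers enriched. In UAC, cluster 13 had Igh-6 among its leading genes, with 5 erythroid and 7 mast and basophil markers enriched. Its Ctgf was at 8.77 CPM and its Cyr61 at 2.92 CPM. These were 0.548% and 0.954% of the skeletal-cluster level, beside a marker median of 0.596%. Doublets were not treated, and their part in these values was not tested.

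Nov was found in a lymphoid cluster of both UAC libraries. In the T and NK-like cluster, which had all 9 matched T and NK markers enriched and was led by Ccl5, it had 4 UMIs in UAC (cluster 17) and 13 in UAC + miR-330 (cluster 19). The pair differ in content, since cluster 19 also had 6 of the 7 matched mast and basophil markers enriched and cluster 17 had 0. The Nov counts gave 1.83 CPM (0.498 to 4.68) and 5.60 CPM (2.98 to 9.58), or 20.2% (5.51% to 51.8%) and 48.5% (25.8% to 82.9%) of the level in the skeletal cluster. The skeletal markers were at a median of 0.197% and 0.110% in the same clusters, and Ctgf at 0.0856% and 0.250%, so the Nov share lay far above both. The sham library had no cluster of its own for these cells. Its clusters 1 and 11, each with 6 of the markers enriched, had 0 Nov UMIs, and the exact intervals reach up to 0.591 and 0.974 CPM (3 UMIs would be 0.480 and 0.792 CPM). These clusters also had 5 and 4 B cell markers enriched, so the bounds do not give the Nov level of T and NK cells alone. The skeletal cluster held 97.3% of Nov UMIs in sham (85.8% to 99.9%), 90.0% in UAC (79.5% to 96.2%) and 82.9% in UAC + miR-330 (73.0% to 90.3%). Wisp3 had 7 UMIs in each of these T and NK-like clusters, 3.20 CPM in UAC and 3.02 CPM in UAC + miR-330.

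Wisp2 was the member with the largest part of its few UMIs elsewhere, 7 of 18 in sham, 6 of 36 in UAC and 9 of 36 in UAC + miR-330. The macrophage-like cluster, led by Fcnb and Vcan with all 12 macrophage markers enriched, held 2 Wisp2 UMIs in sham (cluster 15), 4 in UAC (cluster 9) and 6 in UAC + miR-330 (cluster 10). That is 0.591 CPM (0.0716 to 2.13), 0.682 CPM (0.186 to 1.75) and 1.00 CPM (0.368 to 2.18), and the intervals overlapped. As a share of the skeletal-cluster level these were 48.5%, 13.6% and 21.8%, each with a lower bound of at least 3.70%, against marker medians of 0.364%, 0.245% and 0.184%. These bounds leave out the counting error of that level, which rests on 11, 30 and 27 UMIs, and would be lower with it. The other 5 of the 7 UMIs in sham lay in cluster 13, with erythroid markers (3 UMIs, 21.7% of the skeletal-cluster level, 4.48% to 63.4%), and cluster 10, with neutrophil markers (2 UMIs, 34.5%, 4.18% to 125%), so Wisp2 outside the skeletal cluster was not limited to the macrophage-like clusters.

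The same macrophage-like clusters had Ctgf at 18.3 CPM (14.0 to 23.5) in sham, 13.1 CPM (10.4 to 16.4) in UAC and 9.35 CPM (7.07 to 12.1) in UAC + miR-330. These were 0.949%, 0.820% and 0.678% of the skeletal-cluster level, above the upper quartiles of the markers there, 0.638%, 0.312% and 0.333%, and below the share of all marker UMIs summed, 1.64%, 2.02% and 1.98%, a sum that includes 3 fibroblast markers and 1 chondrocyte marker enriched in each of these clusters. Whether these Ctgf UMIs come from the cells of the cluster was not tested. Cyr61 had 30 UMIs in the UAC cluster, at 5.11 CPM (3.45 to 7.30), beside 2 UMIs in the sham cluster and 3 in that of UAC + miR-330. In the UAC cluster that was 1.67% (1.13% to 2.38%) of the skeletal-cluster level. It lay above the upper marker quartile of 0.312%, and its interval held the summed marker share of 2.02%. Which cells these Cyr61 UMIs come from was not tested. In the UAC library the neutrophil-marker clusters 12 and 18 had Ctgf at 12.4 CPM (9.41 to 16.0) and 12.7 CPM (9.18 to 17.2), from 59 and 42 UMIs, or 0.773% and 0.796% of the skeletal-cluster level, where the skeletal markers had medians of 0.176% and 0.155%. This did not hold for the other neutrophil-marker clusters of UAC, 7 and 8, with 9 and 6 markers enriched, which had Ctgf at 4.97 and 3.61 CPM, or 0.310% and 0.226%. UAC cluster 18 had 5 neutrophil markers enriched. Clusters with at least 6 neutrophil markers enriched had Ctgf at 4.59 and 7.996 CPM in sham (clusters 8 and 10) and at 1.64, 4.37, 2.30 and 6.89 CPM in UAC + miR-330 (clusters 6, 9, 15 and 18). Ctgf was at 0.499% (0.320% to 0.743%) in that cluster 18, beside a marker median of 0.153%. Cluster 9 of UAC + miR-330 had 0.317% (0.205% to 0.468%) beside 0.153%, and sham cluster 10 had 0.414% (0.293% to 0.569%) beside 0.291%. The upper marker quartiles of these clusters, 0.256% and 0.442%, lay within these intervals. Sham cluster 8 and clusters 6 and 15 of UAC + miR-330 lay below their marker medians. In the UAC library cluster 18 had 0 UMIs of Cyr61, and the exact interval reaches up to 1.12 CPM (3 UMIs would be 0.910 CPM).

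**Figure D3:**
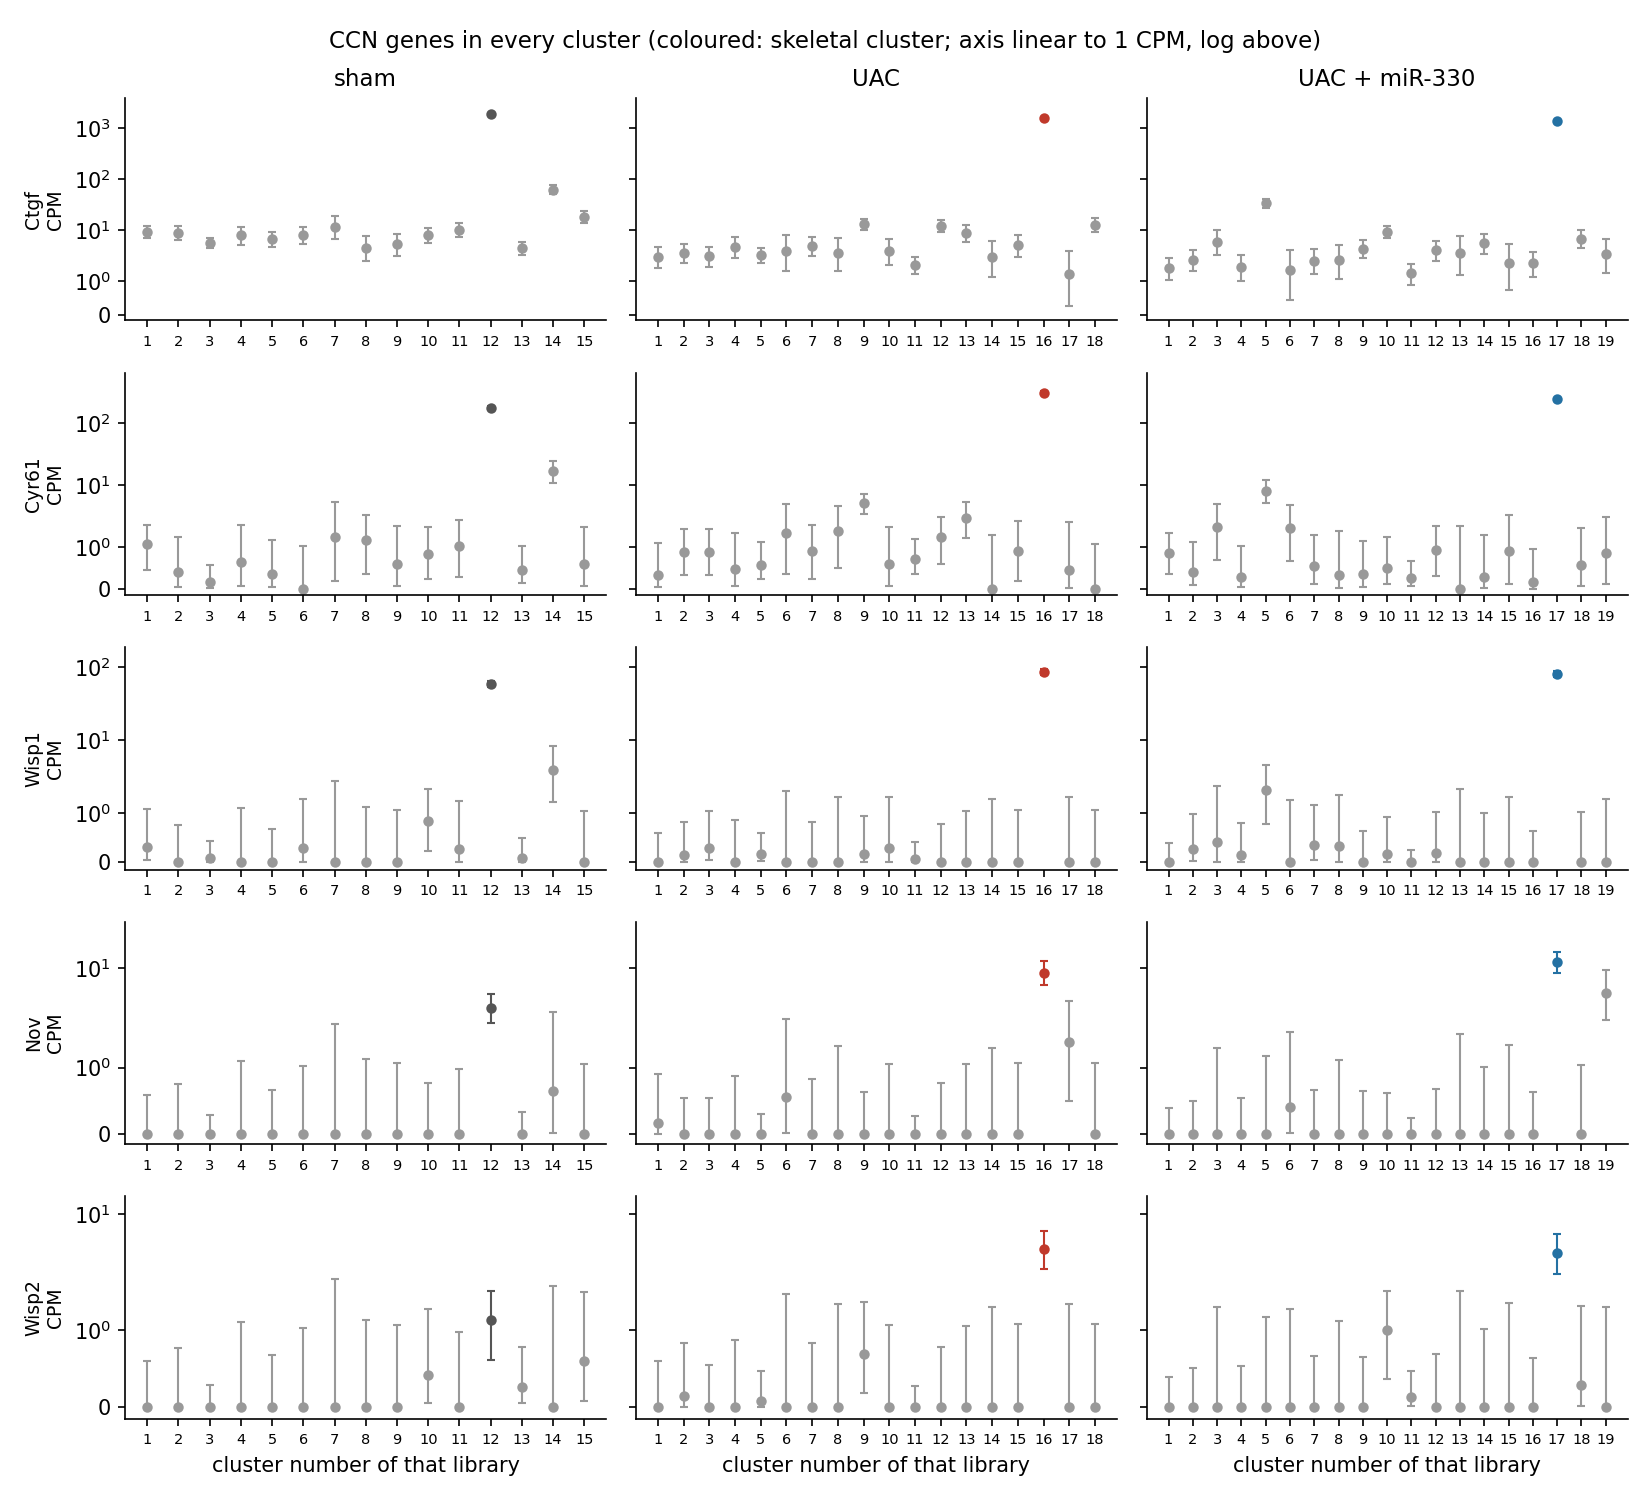
CPM of each CCN gene (rows) in every cluster of each library (columns), on an axis that is linear to 1 CPM and logarithmic above it. Bars are exact Poisson 95% intervals and the coloured point is the skeletal cluster; Nov also stands at 5.60 CPM in cluster 19 of UAC + miR-330, and Ctgf at 62.6 CPM in cluster 14 of sham.

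Receptors and partners of the CCN proteins were present in the skeletal cluster. Of 21 listed genes 19 had at least 10 UMIs in UAC and sham together, with 1 called higher and 0 lower, a count near the 6.81% and 1.02% of all genes. The median log2 ratio of the 19 was 0.33, beside 0.15 for all 12606 genes. In UAC + miR-330 against UAC 1 of 19 was higher and 1 lower, beside 5.53% and 5.28% of all genes, with a median of 0.08 beside 0.01. These shares and medians of all genes hold for each list that follows. The most abundant were the matrix proteins fibronectin (Fn1), at 2692, 2755 and 3231 CPM in sham, UAC and UAC + miR-330, and aggrecan (Acan), at 1638, 1471 and 1949 CPM. The called gene in UAC against sham was Itgb2, the beta chain of leukocyte integrins, at 2.99, 9.70 and 3.40 CPM, with log2 ratios of 1.68 in UAC against sham and -1.49 in UAC + miR-330 against UAC. Neutrophil markers in this cluster, 0 of them enriched there, moved in the same directions, at a sum of 1249.6, 4382 and 867 CPM. Which cells the Itgb2 UMIs come from was not tested. Itga6, a laminin receptor chain that CYR61 and CTGF also bind, was at 56.3, 48.3 and 84.8 CPM, and was called higher in UAC + miR-330 against UAC at a log2 ratio of 0.81.

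Genes of the Hippo pathway, which controls YAP and TAZ, were at low to moderate levels. In UAC against sham 2 of 18 were called higher and 0 lower (median 0.07, beside 0.15 for all genes), and in UAC + miR-330 against UAC 1 of 18 was higher and 0 lower (median 0.26, beside 0.01), counts near the 6.81% and 5.53% of all genes called higher. Vgll4, a TEAD cofactor that competes with YAP, stood at 188, 164 and 214 CPM and Wwtr1, the gene of TAZ, at 127, 154 and 167 CPM. The largest call in UAC against sham was Amot, a YAP-binding scaffold, at 3.55, 11.5 and 7.99 CPM and a log2 ratio of 1.69. In UAC + miR-330 against UAC the call was Stk3, the gene of the kinase MST2, at 41.4, 42.8 and 73.4 CPM and a log2 ratio of 0.78.

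Other known targets of YAP and TAZ were also measured. Of 19 matched genes 2 were called higher and 1 lower in UAC against sham (median 0.23, beside 0.15 for all genes), and 1 higher and 1 lower in UAC + miR-330 against UAC (median 0.07). The most abundant were Ccdc80, a matrix protein gene, at 787, 642 and 952 CPM, and Tgfb2 at 165, 222 and 232 CPM. Gadd45a, a stress gene, was at 15.2, 38.1 and 16.5 CPM, called higher in the first comparison (log2 ratio 1.33) and lower in the second (-1.21). Igfbp3 was at 5.32, 2.17 and 0.680 CPM and was called lower in UAC against sham, at -1.25. Dock5 was called higher in UAC + miR-330 against UAC, at 0.96, with 13.5, 14.9 and 29.1 CPM in the 3 libraries.

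Of the TGF-beta list 2 of 19 were called higher and 0 lower in UAC against sham (median 0.12, beside 0.15 for all genes), and 2 of 18 higher and 0 lower in UAC + miR-330 against UAC (median -0.03, beside 0.01), where 6.81% and 5.53% of all genes were called higher. Its abundant member Postn, a matrix gene, stood at 1767, 1662 and 1479 CPM and was not called in either comparison. Ltbp2, which encodes a latent TGF-beta binding family protein, was at 2.22, 6.52 and 3.57 CPM with a log2 ratio of 1.54 in UAC against sham. Smad4, the shared partner of the receptor-activated SMADs, was at 19.7, 19.4 and 36.7 CPM with a log2 ratio of 0.92 in UAC + miR-330 against UAC.

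The Wnt list had 4 of 23 genes called higher and 0 lower in UAC against sham (median 0.37), where 6.81% and 1.02% of all genes were (median 0.15). In UAC + miR-330 against UAC 2 of 24 were higher and 1 lower (median 0.03), where 5.53% and 5.28% of all genes were (median 0.01). By UMIs added over the 3 libraries the secreted inhibitor gene Wif1 led it, at 726, 672 and 625 CPM, followed by Tcf7l1, at 116, 150.0 and 146 CPM. Sfrp2, another secreted Wnt modulator, was at 1.11, 4.85 and 11.4 CPM, with log2 ratios of 2.08 and 1.22, called higher in each comparison. Lef1, a transcription factor of the pathway, was at 12.5, 19.4 and 11.4 CPM, called higher in UAC against sham (0.63) and lower in UAC + miR-330 against UAC (-0.76).

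Targets of SRF and its MRTF coactivators, a second route from actin and strain to transcription, gave 3 of 11 called higher and 0 lower in UAC against sham (median 0.29), beside 6.81% and 1.02% of all genes (median 0.15). In UAC + miR-330 against UAC 0 were higher and 3 of 11 lower (median -0.15), beside 5.53% and 5.28% of all genes (median 0.01). The abundant members Tpm1, at 170, 160.0 and 187 CPM, and Vcl, at 141, 171 and 155 CPM, were not called. The largest call of this list in both comparisons was that of Myl9, a myosin light chain gene, at 6.54, 18.6 and 9.52 CPM with log2 ratios of 1.499 and -0.96. The other called genes, named after their values were seen, were Tagln at 15.3, 41.1 and 22.3 CPM and Tpm2 at 55.3, 94.98 and 59.1 CPM, each higher in the first comparison and lower in the second; Tagln is also a mural marker.

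Several cell type markers moved within the skeletal cluster beside these values, and their part in the CCN ratios was not tested. Endothelial markers, 10 of 11 matched, summed to 71.6 CPM (66.2 to 77.4) in sham, 13.9 CPM (11.1 to 17.2) in UAC and 12.1 CPM (9.42 to 15.2) in UAC + miR-330. The most abundant was Emcn at 17.5 CPM in sham and Egfl7 at 6.02 and 6.29 CPM in the UAC libraries, and Cdh5, Kdr, Tek and Emcn had 0 UMIs in both of these. In UAC against sham 8 of 10 were called lower and 1 higher. Of these markers 6 were enriched in the skeletal cluster of sham and 1 in that of each UAC library, while 8 were enriched in UAC cluster 15 and 9 in UAC + miR-330 cluster 14, both led by Dntt and Jhy, so the markers lay in different clusters by library. Neutrophil markers, all 12 matched, summed to 1249.6, 4382 and 867 CPM, led by S100a9 at 495 CPM in sham and 1891 CPM in UAC and by S100a8 at 335 CPM in UAC + miR-330. Of these, 7 of 11 were called higher in UAC against sham and 8 of 9 lower in UAC + miR-330 against UAC, and Ltf had 0 UMIs in sham and UAC + miR-330. Mural markers, 9 of 9 matched, summed to 391.8, 407 and 429 CPM, of which Cspg4 gave 348, 324 and 377 CPM, with Cnn1 at 0 UMIs in all 3 libraries. Of the mural markers 2 of 6 were called higher and 1 lower in UAC against sham (median 0.48), and 0 of 6 higher and 1 lower in UAC + miR-330 against UAC (median -0.45). Among chondrocyte markers 1 of 19 was called higher and 1 lower in UAC against sham (median -0.15), and 7 of 19 higher and 0 lower in UAC + miR-330 against UAC (median 0.46). Osteogenic markers had 3 of 12 higher and 2 lower in the first comparison and 4 higher and 1 lower in the second, and fibroblast markers 2 of 13 higher and 0 lower in the first and 1 higher and 1 lower in the second.

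Further lists gave these sums in the skeletal cluster of sham, UAC and UAC + miR-330. Marrow stromal markers stood at 76.4, 62.9 and 76.0 CPM, led by Foxc1, and skeletal muscle markers at 133, 33.4 and 91.4 CPM, led by Tnni2, with Acta1, Myl1 and Tnnc2 at 0 UMIs in all 3. Osteoclast markers stood at 193, 277 and 167 CPM, nearly all Ctsk, with Atp6v0d2, Dcstamp, Ocstamp and Calcr at 0 UMIs in each library. Erythroid markers stood at 59.8, 32.3 and 61.8 CPM, B cell markers at 378, 358 and 246 CPM, and T and NK markers at 4.99, 12.7 and 4.76 CPM. Mast and basophil markers stood at 1.55, 2.34 and 2.38 CPM and platelet markers at 3.99, 1.505 and 1.87 CPM, while dendritic markers stood at 6612, 5603 and 5358 CPM, nearly all Cst3, a protease inhibitor gene that many cell types express. No member of the CCN family is in any of these lists.

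Across the clusters of a library, each member had its own nearest genes. Likeness was the Pearson r of log2(CPM + 1) over the 15, 18 and 19 clusters, averaged over the libraries, among 11724 genes with at least 100 UMIs in each, a minimum that Nov and Wisp2 themselves did not reach. Clusters of a library share its depth and its free RNA, so r is a description only. For Ctgf the 5 nearest were Irx5, Col25a1, Rcn3, P4ha2, which encodes a collagen prolyl hydroxylase, and Ihh, the hedgehog ligand of prehypertrophic chondrocytes, at a mean r of 0.962 down to 0.957. For Cyr61 they were the matrix genes Bgn, Col3a1, Col11a2 and Sparc and the entry AABR07068316.1, at 0.976 to 0.969. Wisp1 was nearest to Id4, AABR07070046.1, AABR07059679.2 and 2 osteoblast genes, Ifitm5 and Dlx5, at 0.988 to 0.984. Nov was nearest to Tpbg, Podnl1, Ptprv, Dclk1 and Sulf1, at 0.969 to 0.939, and Wisp2 to Lrrn4cl, Gprc5c, Tagln, Mb21d2 and the membrane protease gene Mmp14, at 0.931 to 0.917. Nov and Wisp2 had 0 UMIs in most clusters of each library, and Wisp1 in 7 of 14 other clusters in sham, 11 of 17 in UAC and 10 of 18 in UAC + miR-330, so for these 3 members r rests largely on the skeletal cluster and the order of the neighbours carries little. With Spearman rank correlation 0 or 1 of the 5 genes stayed for each member (Bgn for Cyr61, Tpbg for Nov, Id4 for Wisp1), so the other neighbours hold for the Pearson measure only.

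Promoter sequences from RefSeq (GRCr8) are shown for Ctgf and Cyr61, because these strain-responsive members lay on opposite sides of sham in UAC. Of the 5 members 2 had an entry in the promoter table used, and none is shown for Nov, Wisp1 and Wisp2. Each window runs from 250 bases before to 50 bases after the start of the gene, on the minus strand, at chr1:22624565-22624864 (GRCr8) for Ctgf and chr2:237225640-237225939 for Cyr61. Capitals mark GGAATG or its reverse CATTCC, the core that TEAD factors bind, and TATAAA or its reverse TTTATA, the TATA box; the motifs do not overlap.
Ctgf: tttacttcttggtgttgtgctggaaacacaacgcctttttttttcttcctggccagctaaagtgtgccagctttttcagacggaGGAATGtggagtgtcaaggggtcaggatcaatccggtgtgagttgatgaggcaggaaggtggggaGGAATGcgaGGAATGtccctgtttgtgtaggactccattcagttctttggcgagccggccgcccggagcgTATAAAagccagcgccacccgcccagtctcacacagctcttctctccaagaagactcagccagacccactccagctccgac
Cyr61: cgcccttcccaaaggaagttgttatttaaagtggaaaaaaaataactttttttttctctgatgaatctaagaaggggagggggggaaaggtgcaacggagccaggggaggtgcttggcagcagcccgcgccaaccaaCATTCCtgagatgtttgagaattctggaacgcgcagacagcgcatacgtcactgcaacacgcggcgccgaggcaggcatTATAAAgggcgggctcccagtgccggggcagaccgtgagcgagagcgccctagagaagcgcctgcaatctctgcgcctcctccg
Ctgf held 3 copies of GGAATG and Cyr61 1, as CATTCC, and each held 1 TATAAA. At least 1 GGAATG on either strand was found in 14.2% of 33469 promoters of this length, and at least 3 in 0.0956% of them. TATAAA on either strand was found in 14.2% as well. A match describes the letters of the window and no binding was measured.

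The delivered microRNA was miR-330, and the arm is not named in the labels. Both mature arms of the rat hairpin are shown from RefSeq (GRCr8), on the plus strand of chr1:87961227-87961248 for the 5p arm and chr1:87961266-87961288 for the 3p arm, with the seed, bases 2 to 8, in capitals.
rno-miR-330-5p: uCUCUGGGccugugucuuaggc
rno-miR-330-3p: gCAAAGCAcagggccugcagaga
The seeds differ, so the arms form separate seed groups. Mature microRNAs have no poly(A) tail and their level was not measured in these libraries.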

How the data were processed

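The submitters' notes name Cell Ranger 7.0, STAR and Seurat 4.0.1 and the builds GRCh38 and mm10 (human and mouse); the rat build is not given in the sources used here. The deposited mean counts are a signal, scaled by 1 factor per cluster. The deposited log2 values and the authors' adjusted p-values compare clusters of 1 library and were not used.

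Each mean was divided by the smallest positive mean of its column, and 100% of values came out whole within 0.001. UMIs of names on several identifiers (101, 106 and 116 names) were added. CPM, exact Poisson and binomial intervals and log2 ratios (0.5 UMI added) were computed with Python 3.11.15, numpy 2.4.6, pandas 2.3.3 and scipy 1.17.1, figures were drawn with matplotlib 3.10.9, and the steps were tested on simulated data. Scaling, pseudocount, fold, UMI minimum and measure of likeness were varied. The skeletal cluster is the one with the most enriched chondrocyte markers.

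Named genes are the members, the 5 genes most like each, the 2 most abundant genes of each of 6 pathway lists with the largest call each way, and the most abundant gene of marker lists; some of these values are not reported here. Members and lists were chosen with earlier results of these data known. RefSeq GRCr8 gave synonyms and sequences, and 11 list genes were not matched. Doublets and free RNA were not treated, and barcodes shared between libraries were not analysed here.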

Additional observations from a re-analysis of the deposited data

How the results depend on the processing

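No paired analysis was possible because each group was 1 library. Over 4 other scalings and 5 UMIs added in place of 0.5, the sign of the log2 ratio was kept for 7 of 10 member values in the skeletal cluster, among them all 5 of UAC against sham, and for 6 of 10 over all clusters. Cyr61, Nov and Wisp2 ranged from 0.67 to 1.05, 1.04 to 1.42 and 1.72 to 2.24 in UAC against sham. The signs lost in the skeletal cluster were those of Ctgf, Wisp1 and Wisp2 in UAC + miR-330 against UAC. They were lost in the deposited mean counts, which add 0.236 to the log2 ratio of every gene in that comparison. Over all clusters the lost signs were those of Cyr61 and Wisp1 in UAC against sham and of Wisp1 and Wisp2 in UAC + miR-330 against UAC. Leaving out mitochondrial, ribosomal, haemoglobin and immunoglobulin genes moved no value beyond its counting interval.

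In the deposited mean counts the skeletal-cluster log2 ratios of UAC against sham were -0.07472 for Ctgf, 1.001 for Cyr61 and 0.7469 for Wisp1, and those of UAC + miR-330 against UAC were 0.02159 for Ctgf, -0.1156 for Cyr61 and 0.1266 for Wisp1; these counts add up to 4541, 5200 and 6123.5 per cluster in sham, UAC and UAC + miR-330. Centred on the median gene, UAC against sham gave -0.4055 for Ctgf and 0.6702 for Cyr61. Per 1000 UMIs of skeletal markers, UAC against sham gave -0.0261 for Ctgf, 1.05 for Cyr61 and 0.7955 for Wisp1, and UAC + miR-330 against UAC gave -0.3798 for Ctgf and -0.517 for Cyr61. Over all clusters that scaling called 4 members higher in UAC against sham and 0 lower, in place of 0 and 1, since it adds 1.06 to the log2 ratio of every gene: marker UMIs took a smaller share of the UAC library.

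In the skeletal cluster the 3 members called higher in UAC against sham became 4 with deposited mean counts or marker scaling, 2 at a fold of 2 and 2 with at least 50 UMIs. Among all genes, those called higher in UAC against sham went from 859 to 408 at a fold of 2, 1888 with deposited mean counts, 537 centred on the median and 2283 per marker UMI, and those called lower from 129 to 76, 74, 220 and 65. In UAC + miR-330 against UAC they went from 685 to 226, 1719 and 374 higher (fold of 2, deposited, markers) and from 655 to 340, 336 and 1158 lower. Over all clusters UAC against sham went from 935 to 405, 1600 and 13250 higher and from 773 to 313, 447 and 30 lower (fold of 2, deposited, markers). There UAC + miR-330 against UAC went from 1503 to 398, 3942 and 820 higher and from 464 to 168, 199 and 753 lower (fold of 2, deposited, centred). The cause was not tested. Wisp2 with 11 to 30 UMIs and Nov with 36 to 68 are the members limited most by depth.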
